A study of Mus musculus with 15 samples.

Results

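The glucocorticoid and fasting response genes described here are Nr3c1, Fkbp5, Sgk1, Tsc22d3, Zbtb16, Errfi1, Sult1a1, Hif3a, Plin4 and Pdk4. They were chosen by name, with earlier results of these data known, so shares set against all genes below are descriptive. All 10 were found among the 43629 genes of the count tables. RNA-seq was performed on whole brains of male C57BL/6J mice, an inbred laboratory strain, that either had free access to food (ad libitum, AL) or were kept on every-other-day feeding (EOD), in which a day with food alternated with a day without. The labels call the EOD groups intermittent fasted. The young groups held 4 AL and 3 EOD mice and the old groups 4 mice on each diet, each sequenced as its own library, and the labels give 3 months as the age of the young and 24 months as the age of the old mice. Young EOD mice had been on the diet for a short time and old EOD mice for most of their adult life, so that duration of feeding and age cannot be told apart in the old EOD group. By a general rule of the study's methods, data were collected from the morning that followed a day with food unless otherwise stated. Whether this held for the brains used here is not given separately, and feeding state and hour can both move genes of this kind.

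Glucocorticoids, of which corticosterone is the main one in the mouse, enter cells and bind the glucocorticoid receptor, the product of Nr3c1. The bound receptor moves to the nucleus and raises transcription of target genes from glucocorticoid response elements, which are imperfect palindromes of a hexamer. Corticosterone follows a daily rhythm and rises with stress and with fasting, and many brain cells, glia and endothelium among them, respond to it. Fkbp5, Tsc22d3, Sgk1, Zbtb16, Errfi1, Sult1a1, Hif3a, Plin4 and Pdk4 are here called the 9 target genes, because each has been described as induced by glucocorticoids, by fasting or by both.

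The RefSeq promoter table (GRCm38.p6, 250 bases before to 50 bases after an annotated start) held 16 promoters of 8 of these genes and none of Nr3c1 and Zbtb16. The palindrome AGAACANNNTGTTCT lay in 1 of the 16, that of an internal start of Sgk1, and in 0.00913% of all 32851 promoters in the table. The hexamer TGTTCT, searched on both strands and contained in the palindrome, lay in 5 of the 16 promoters, at Sgk1, Tsc22d3 and Sult1a1, and in 19.0% of all promoters. The Sgk1 sequence is shown because it carries the palindrome and because Sgk1 was among the genes that varied most, and the Tsc22d3 and Sult1a1 sites are shown for comparison. Capitals mark the palindrome in Sgk1 and the hexamer, or its reverse complement, in the others.
Sgk1, chr10:21993640-21993889, plus strand: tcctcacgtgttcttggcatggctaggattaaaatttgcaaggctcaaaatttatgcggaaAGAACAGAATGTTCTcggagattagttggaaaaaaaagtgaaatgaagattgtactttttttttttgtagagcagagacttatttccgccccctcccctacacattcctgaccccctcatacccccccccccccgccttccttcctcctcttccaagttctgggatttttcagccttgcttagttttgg
Tsc22d3, chrX:140600690-140600719, minus strand: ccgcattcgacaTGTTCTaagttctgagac
Sult1a1, chr7:126676613-126676642, minus strand: gaaaagtcccatTGTTCTaccttaagttta
Sult1a1, chr7:126676435-126676464, minus strand: ttttgtttctggAGAACAgccagtcctagc

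In the GENCODE annotation of the same build, the Sgk1 sequence overlapped 0 exons, and 5 longer Sgk1 transcripts span the palindrome at chr10:21993701-21993715, which is therefore intronic to them and lies 189 bases before the internal start. The hexamer of Tsc22d3 lay 185 bases before the start of the promoter at chrX:140600473-140600772. The Tsc22d3 promoters at chrX:140542619-140542918 and chrX:140548522-140548821 held 0 hexamers. The hexamers of Sult1a1 lay 212 and 34 bases before its start. Each site shown lay in sequence that overlapped 0 exons of its gene. A match of letters is not a measured binding site, and nothing in these data bears on receptor binding.

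The libraries held between 5198748 and 13610729 counts, and 15864 genes, all 10 glucocorticoid and fasting response genes among them, passed the filter on low counts. The third young AL mouse stood apart. It had the largest total count and the fewest genes with a count (17280, against 19054 to 20880 in the other mice), and its summed immediate-early genes and choroid plexus markers were the lowest of the series, at 116 and 331 CPM (counts per 1000000 counts of the library). Every comparison was therefore also fitted on the 14 other mice. Markers of brain cells were abundant in every mouse, with the 5 neuron markers summing to between 6560 and 8530 CPM and the 6 oligodendrocyte markers to between 5790 and 7570 CPM. The pituitary markers reached 1020 CPM in the fourth old AL mouse and at most 7.11 CPM in any mouse of the other groups. Nothing in the labels says which mice were littermates or shared a cage, so p-values measure the spread between these mice.

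Levels between genes were compared per length of exon, as RPKM (CPM divided by the exon length in kilobases), averaged over the 15 mice. Sgk1 had the highest level (27.2 ± 11 RPKM, SD, n = 15), followed by Nr3c1 (23.3 ± 1.75), Tsc22d3 (23.2 ± 5.42), Errfi1 (12.1 ± 1.77), Fkbp5 (8.57 ± 1.36), Sult1a1 (7.20 ± 2.05), Zbtb16 (6.39 ± 1.45), Pdk4 (4.05 ± 0.782), Plin4 (1.90 ± 1.20) and Hif3a (0.972 ± 0.386). Neighbours in that order were not always separated. Sgk1 was above Nr3c1 in 9 of 15 mice and Nr3c1 above Tsc22d3 in 8 of 15, whereas Tsc22d3 was above Errfi1 and Zbtb16 above Pdk4 in all 15. Hif3a was the most thinly measured gene, with 13 to 101 counts per mouse, and Plin4 had 28 to 270.

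The genes also differed in how much mice of the same group differed from each other. The SD of log2 CPM within groups, over the 14 mice without the third young AL mouse, was 0.763 for Plin4, 0.551 for Hif3a and 0.530 for Sgk1, which placed them at the 98.9th, 94.9th and 94th percentiles of all genes tested. It was 0.118 for Nr3c1, at the 22.9th percentile, and the median over all genes tested was 0.182. The receptor gene was thus steadier from mouse to mouse than most genes, and 3 of the target genes were among the most variable. The percentiles were not matched for level. Counts per mouse were 742 to 2466 for Nr3c1, against 13 to 101 for Hif3a and 28 to 270 for Plin4. The part of counting noise in these SDs was not tested. The other 6 targets lay between the 50.8th percentile (Errfi1) and the 81.8th (Sult1a1).

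**Figure D1:**
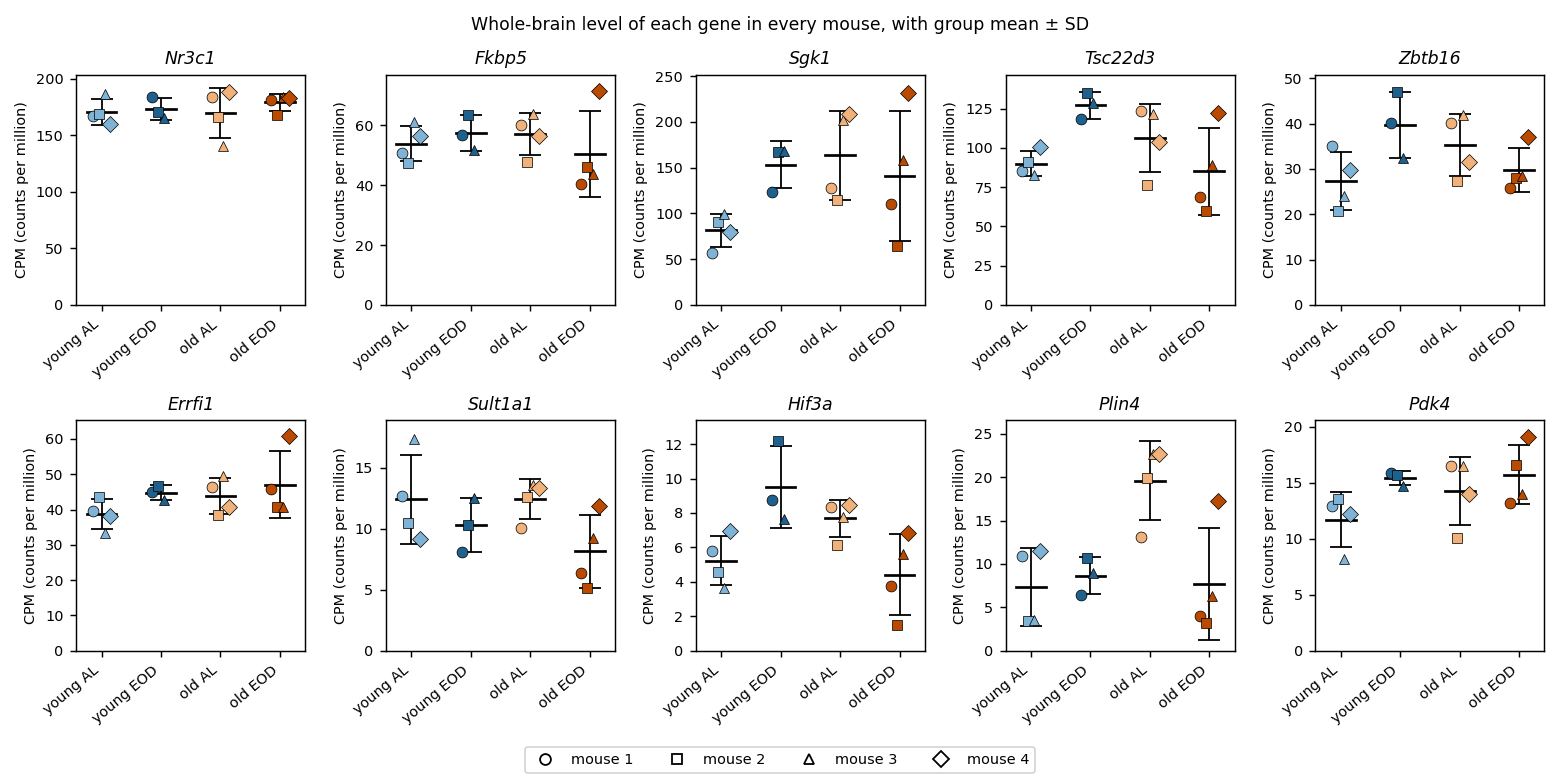
Level of each gene in every mouse, in CPM on axes that start at 0. Each symbol is 1 mouse, with its shape giving the mouse number within the group, and the black line and bars are the group mean ± SD (n = 4, 3, 4 and 4). Sgk1, Tsc22d3, Hif3a and Pdk4 do not overlap between young AL and young EOD mice, and the diamond of the old EOD group, the fourth mouse, is its highest value for the 9 target genes.

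Nr3c1, the glucocorticoid receptor gene (ENSMUSG00000024431, chr18:39410545-39491301, GRCm38), was expressed at nearly the same level in all groups. Young AL mice had 167, 169, 186 and 160 CPM and the young EOD mice 184, 171 and 165 CPM. Old AL mice had 184, 166, 140 and 189 CPM and the old EOD mice 181, 168, 184 and 183 CPM. All groups overlapped. The log2 fold change was 0.02 ± 0.088 (SE) for EOD against AL in young mice and 0.08 ± 0.081 in old mice, and -0.00 ± 0.081 for old against young AL mice and 0.05 ± 0.088 for old against young EOD mice. The 95% intervals of these 4 differences ran from -0.17 at the lowest to 0.24 at the highest, so that larger differences in receptor mRNA over the whole brain were outside them.

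Fkbp5 (ENSMUSG00000024222, chr17:28399095-28517524) encodes a co-chaperone that sits on the receptor complex and lowers its affinity for hormone, and it is among the most used readouts of glucocorticoid action. In young AL mice it stood at 50.9, 47.6, 61.0 and 56.3 CPM and in young EOD mice at 56.7, 63.6 and 51.6 CPM. In old AL mice it stood at 60.2, 47.6, 63.9 and 56.5 CPM and in old EOD mice at 40.4, 46.1, 43.7 and 71.6 CPM. The groups overlapped in every comparison, and the old EOD group held both the 3 lowest values of the series and the highest. Its log2 fold change was 0.08 ± 0.15 (SE) in young mice and -0.18 ± 0.14 in old mice for EOD against AL (FDR = 0.9984 and 0.9999 in edgeR). Without the third young AL mouse the difference in young mice was 0.15, and without the fourth old EOD mouse that in old mice was -0.39 (FDR = 0.9999). The fourth old EOD mouse was singled out after its values were seen, so values without it, here and below, are descriptive.

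Tsc22d3 (ENSMUSG00000031431, chrX:140539528-140600659), also called GILZ, encodes a leucine zipper protein that mediates anti-inflammatory actions of the hormone. Young AL mice had 85.4, 91.2, 82.4 and 101 CPM, and the young EOD mice had 118, 135 and 128 CPM. These groups did not overlap. Old AL mice had 123, 76.6, 122 and 104 CPM and the old EOD mice 68.9, 59.97, 88.8 and 122 CPM, which overlapped widely. The log2 fold change for EOD against AL was 0.50 ± 0.18 (SE) in young mice and -0.32 ± 0.16 in old mice, and for old against young EOD mice it was -0.58 ± 0.18 (FDR = 0.4206). Without the fourth old EOD mouse the last of these was -0.80 and passed the threshold (edgeR FDR = 0.02271). That mouse had the highest value of its group and was singled out after its values were seen. The larger difference without it follows from that choice and is no support for a difference.

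Zbtb16 (ENSMUSG00000066687, chr9:48654311-48835945), also called PLZF, encodes a zinc finger transcription factor. Its level in young AL mice was 34.9, 20.6, 24.1 and 29.7 CPM and in young EOD mice 40.04, 46.9 and 32.3 CPM, and only the first young AL mouse reached into the range of the young EOD group. Its level in old AL mice was 40.04, 27.4, 42.0 and 31.6 CPM and in old EOD mice 25.8, 28.0, 28.4 and 36.9 CPM. Its log2 fold change for EOD against AL was 0.54 ± 0.18 (SE) in young mice and -0.23 ± 0.16 in old mice.

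Sgk1 (ENSMUSG00000019970, chr10:21882184-21999903) encodes the serum- and glucocorticoid-regulated kinase, which acts on ion channels and transporters and is expressed in oligodendrocytes and neurons. In young AL mice it stood at 57.1, 90.4, 99.3 and 79.4 CPM and in young EOD mice at 124, 168 and 168 CPM, without overlap. In old AL mice it stood at 127, 115, 202 and 209 CPM, all above the young AL mice, and the old EOD mice had 110, 64.2, 158 and 231 CPM, which spanned 3.60-fold within the group. The log2 fold change was 0.90 ± 0.29 (SE) for EOD against AL in young mice, 0.996 ± 0.27 for old against young AL mice, and -0.21 ± 0.26 for EOD against AL in old mice. The age difference in AL mice missed the threshold narrowly (edgeR FDR = 0.1084, the 190th smallest p of 15864 genes).

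Errfi1 (ENSMUSG00000028967, chr4:150853919-150868892) encodes an inhibitor of the epidermal growth factor receptor. Young AL mice had 39.5, 43.6, 33.5 and 38.1 CPM and the young EOD mice 44.9, 46.8 and 42.6 CPM. Old AL mice had 46.5, 38.3, 49.6 and 40.9 CPM and the old EOD mice 45.9, 40.6, 40.7 and 60.8 CPM. Fold changes were small, with log2 values of 0.21 ± 0.13 (SE) for EOD against AL in young mice and 0.11 ± 0.12 in old mice, and the latter was -0.04 without the fourth old EOD mouse.

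Among the metabolic genes, Pdk4 (ENSMUSG00000019577, chr6:5483351-5496309) encodes the pyruvate dehydrogenase kinase that spares glucose during fasting. Its level in young AL mice was 12.9, 13.6, 8.16 and 12.2 CPM and in young EOD mice 15.9, 15.7 and 14.7 CPM, without overlap. Its level in old AL mice was 16.5, 10.1, 16.5 and 13.9 CPM and in old EOD mice 13.2, 16.6, 14 and 19.1 CPM. Its log2 fold change for EOD against AL was 0.41 ± 0.19 (SE) in young mice and 0.14 ± 0.17 in old mice. The lowest young value was that of the third young AL mouse, and without it the difference in young mice was 0.26 ± 0.17 (edgeR FDR = 0.9998).

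Plin4 (ENSMUSG00000002831, chr17:56100591-56109803) encodes a perilipin, a coat protein of lipid droplets. In young AL mice it stood at 10.97, 3.39, 3.55 and 11.5 CPM and in young EOD mice at 6.37, 10.7 and 8.94 CPM. In old AL mice it stood at 13.1, 19.9, 22.7 and 22.7 CPM, all above the young AL mice, and the old EOD mice had 4.02, 3.19, 6.35 and 17.2 CPM. The first 3 old EOD mice lay below every old AL mouse and the fourth lay within the old AL range. The log2 fold change was 1.44 ± 0.41 (SE) for old against young AL mice (edgeR FDR = 0.1497) and -1.34 ± 0.41 for EOD against AL in old mice (FDR = 0.9999). Without the fourth old EOD mouse the latter was -2.10 (FDR = 0.2885). Plin4 meets the gene Hdgfl2 end to end on the other strand, over a few bases, and the counting used strand.

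Hif3a (ENSMUSG00000004328, chr7:17031507-17062427) encodes a member of the hypoxia-inducible factor family that can oppose its relatives. Young AL mice had 5.78, 4.58, 3.63 and 6.94 CPM and the young EOD mice 8.73, 12.2 and 7.62 CPM, without overlap. Old AL mice had 8.33, 6.17, 7.75 and 8.49 CPM and the old EOD mice 3.77, 1.48, 5.62 and 6.83 CPM, all of which lay below the young EOD mice. Its log2 fold change for EOD against AL was 0.85 ± 0.31 (SE) in young mice and -0.79 ± 0.30 in old mice, and for old against young EOD mice it was -1.08 ± 0.32 (edgeR FDR = 0.3828). The lowest value rested on 13 counts.

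Sult1a1 (ENSMUSG00000030711, chr7:126672865-126676432) encodes a sulfotransferase of phenols and catecholamines. Its level in young AL mice was 12.7, 10.4, 17.4 and 9.12 CPM and in young EOD mice 8.11, 10.3 and 12.5 CPM. Its level in old AL mice was 10.1, 12.6, 13.6 and 13.4 CPM and in old EOD mice 6.37, 5.12, 9.21 and 11.8 CPM, of which the first 3 lay below every old AL mouse. Its log2 fold change for EOD against AL was negative at both ages, at -0.28 ± 0.25 (SE) in young and -0.60 ± 0.23 in old mice. The third young AL mouse had the highest value of the series, and without it the difference in young mice was -0.06 ± 0.24. It overlaps Sgf29 on the other strand at its end.

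**Figure D2:**
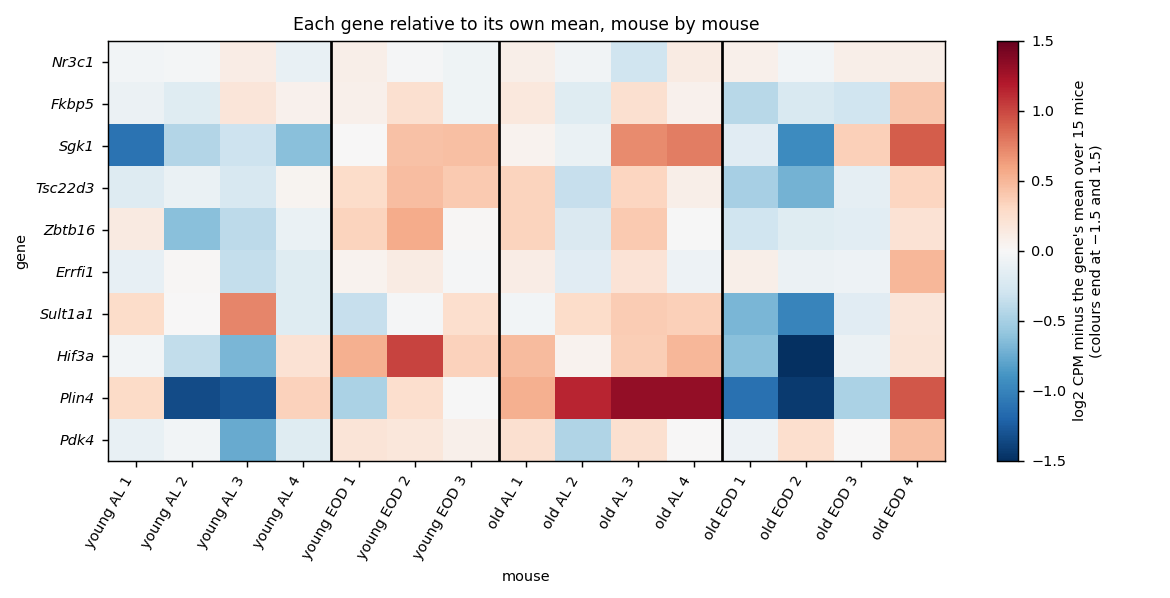
Log2 CPM of each gene (rows) in each of the 15 mice (columns), minus that gene's mean over all mice, with red above and blue below the mean and colours ending at -1.5 and 1.5. Black lines separate the groups. In the fourth old EOD mouse and the third old AL mouse the 9 target genes are above their means, and in the second old EOD mouse 8 of the 9 are below.

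The comparison of EOD with AL in young mice asks what a short period of the diet did to these genes. None of the 10 passed an FDR of 0.1, as was so for all genes (0% of 15864 called by edgeR, 657 genes at an unadjusted p under 0.05, and 1 gene called by DESeq2, which called 0 of the 10). Of the 10, 5 had an unadjusted p under 0.05, all with a higher level in EOD mice, against 1.83% of all genes tested with such a p and a higher level. They were Sgk1, Zbtb16, Tsc22d3, Hif3a and Pdk4, which ranked 38th, 42nd, 91st, 128th and 534th of the 15864 genes by p, and the FDR was 0.9957 for each in edgeR. Sgk1, Tsc22d3, Hif3a and Pdk4 were higher in each of the 3 young EOD mice than in each of the 4 young AL mice, which held for 2.4% of all genes. The log2 fold change was above 0 for 8 of the 9 targets and for 49.2% of all genes, with a median of 0.41 against -0.00 over all genes tested. Without the third young AL mouse it was above 0 for 7 of 9, with a median of 0.26. In that fit Pdk4 had an unadjusted edgeR p of 0.1376 and ranked 1909th. Sgk1, Zbtb16, Tsc22d3 and Hif3a kept a p under 0.05 and ranked 26th, 170th, 286th and 416th.

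In old mice, the comparison of almost lifelong EOD with AL gave values of the other sign for 6 of the 9 targets, whereas Errfi1 and Pdk4 were above 0 and Sult1a1 below 0 at both ages. None of the 10 genes passed an FDR of 0.1, and again no gene of all those tested did (0% in edgeR, 409 genes at an unadjusted p under 0.05, and 0 called by DESeq2). Plin4, Hif3a and Sult1a1, which ranked 31st, 119th and 128th of all genes by p, had an unadjusted edgeR p under 0.05, all with a lower level in EOD mice, against 1.61% of all genes. Only Errfi1 and Pdk4 of the 9 targets had a log2 fold change above 0, as 50.8% of all genes had. The median was -0.23 against 0.00 over all genes tested. No target was separated between old EOD and old AL mice, which 2.59% of all genes were in either direction. The fourth old EOD mouse was above the other 3 mice of its group for all 9 targets. That mouse was singled out after its values were seen, so that lower old EOD levels without it follow from the choice. When it was left out, Fkbp5 (-0.39), Sgk1 (-0.56), Tsc22d3 (-0.55), Sult1a1 (-0.84), Hif3a (-1.06) and Plin4 (-2.10) had an unadjusted p under 0.05 and a lower level, against 1.3% of all genes in the same fit, with 0.2885 as the lowest FDR. When the third young AL mouse was left out as well, Plin4 passed (FDR = 0.0358), with the same log2 fold change of -2.10.

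The interaction, which is the EOD minus AL difference in old mice minus that in young mice, tests whether the diet difference differed between these 2 settings. Old EOD mice were both older and longer on the diet than young EOD mice, so the interaction cannot tell age from duration of feeding. It was below 0 for all 9 targets, with a median log2 value of -0.78 against 0.01 over all genes tested, of which 51.5% were above 0. The targets varied together from mouse to mouse, as given below, so their signs are not independent of each other. For Nr3c1 the interaction was 0.05 ± 0.12 (SE). The values were -1.64 ± 0.44 for Hif3a, -0.82 ± 0.24 for Tsc22d3, -0.78 ± 0.24 for Zbtb16, -1.11 ± 0.39 for Sgk1 and -1.58 ± 0.63 for Plin4. These 5 were the genes with an unadjusted edgeR p under 0.05, against 1.23% of all genes with such a p and a value below 0. Hif3a ranked 7th, Tsc22d3 21st, Zbtb16 30th, Sgk1 66th and Plin4 138th of 15864 genes by p. None passed the correction (every FDR was 0.9998), and 0% of all genes did, with 362 at an unadjusted p under 0.05 and 0 called by DESeq2. All 9 values stayed below 0 without the third young AL mouse (median -0.72), without the fourth old EOD mouse and without both. With the low-count filter loosened to 1 count in total, these 5 genes did pass, and in young mice Sgk1, Tsc22d3 and Zbtb16 passed for the diet, but that fit gave 2165.9 prior degrees of freedom against 9.8, so that a gene's own spread between mice hardly entered its test. The diet comparisons in young and old mice share no mice with each other.

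**Figure D3:**
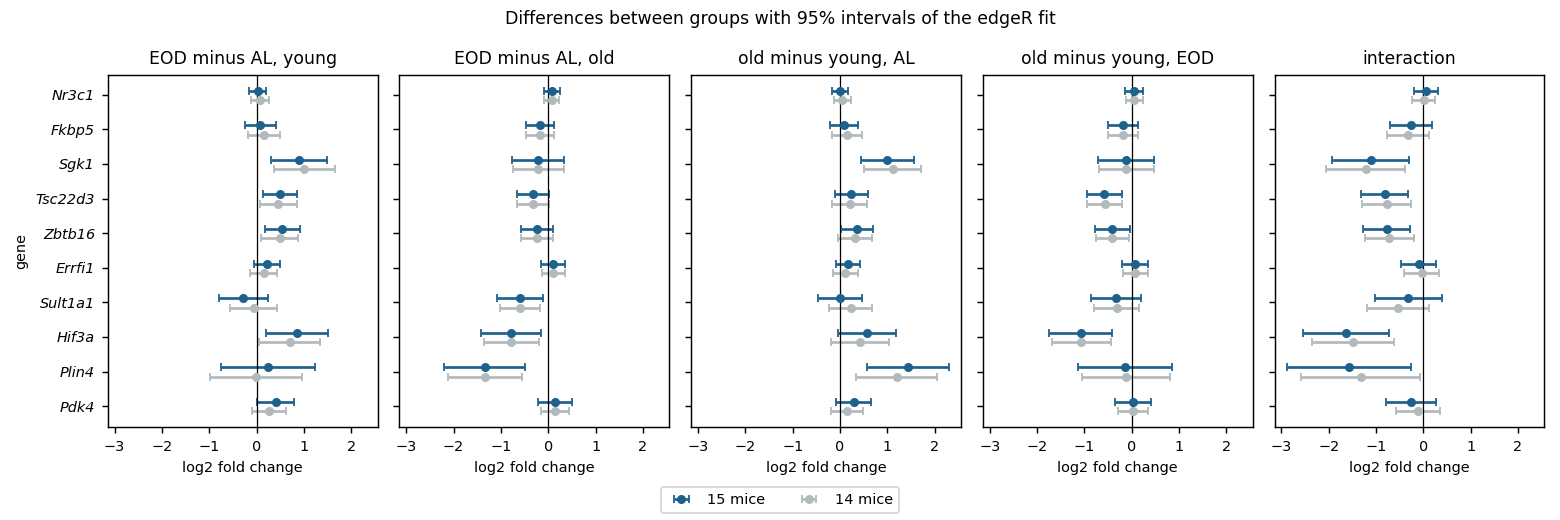
Log2 fold changes of the 10 genes in the 5 comparisons, with the 95% intervals of the edgeR fit on all 15 mice (blue) and on the 14 mice without the third young AL mouse (grey). Points lie mostly right of 0 for EOD minus AL in young mice, mostly left of 0 in old mice, and left of 0 for the 9 target genes in the interaction. Nr3c1 lies within 0.1 of 0 in each panel.

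With age in AL mice, 0 of the 10 genes passed an FDR of 0.1 in edgeR and in DESeq2, whereas 1.09% of all genes did. Sgk1, Plin4 and Zbtb16, which ranked 190th, 241st and 1219th by p, had an unadjusted p under 0.05, all with a higher level in old mice, against 5.14% of all genes. Sgk1 and Plin4 were higher in each of the 4 old AL mice than in each of the 4 young AL mice, which held for 2.98% of all genes. Whether these 2 genes passed depended on which mice were fitted. Sgk1 passed when the second old AL, the second old EOD or the fourth old EOD mouse was left out, and Plin4 when the fourth young AL or the fourth old EOD mouse was left out. Without the third young AL mouse neither passed, at edgeR FDR = 0.1043 for Sgk1 and 0.3531 for Plin4, whose log2 fold change was then 1.20. Zbtb16 had an unadjusted edgeR p of 0.087 in that fit.

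With age in EOD mice, again 0 of the 10 genes passed in edgeR and in DESeq2, against 0.29% of all genes in edgeR. The 3 genes with an unadjusted p under 0.05 had a lower level in old mice, namely Hif3a, Tsc22d3 and Zbtb16, which ranked 120th, 133rd and 564th by p, against 2.68% of all genes. Only Hif3a was separated between the groups, lower in each of the 4 old EOD mice, as 4.29% of all genes were. The 2 age comparisons and the 2 diet comparisons share groups, so that their signs are not independent of each other. Averaged over diets, Sgk1 had a log2 fold change of 0.44 ± 0.20 (SE) with age (FDR = 0.3805), against 2.3% of all genes called. Averaged over ages, Sult1a1 had -0.44 ± 0.17 and Pdk4 0.28 ± 0.13 with EOD (both FDR = 0.9828), against 0% called.

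Sequencing lanes, as named in the headers of the count tables, were compared separately. The first and second lanes held mice of all 4 groups, and the third held no young EOD mouse. EOD minus AL in young mice was above 0 for 8 of the 9 targets within the first lane (median log2 difference 0.26) and for 7 within the second (0.69), where the only young AL mouse was the third, the one that stood apart. In old mice it was above 0 for 0 targets in the first lane (-0.63), for 1 in the second (-0.69) and for 4 in the third (-0.01), which held the third and the fourth old EOD mouse. Each of these values rests on 1 or 2 mice a group, and none was tested.

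Beyond the groups, the targets varied together from mouse to mouse. Over the 14 mice without the third young AL mouse, the deviations of log2 CPM from the group mean had a Pearson's r above 0 in all 36 pairs of target genes, with a median of 0.59 and a range of 0.10 to 0.81. Fkbp5 with Tsc22d3 and Sgk1 with Tsc22d3 had the highest values, both 0.81. Over all pairs of genes whose average log2 CPM reached 1, 49.7% were above 0 and the median was -0.00. Nr3c1 did not share this pattern, with 3 of 9 pairs above 0 and a median of -0.06. The fourth old EOD mouse carried much of the shared variation. Over the 13 mice without it as well, 28 of 36 target pairs were above 0, with a median of 0.34 and a range of -0.36 to 0.81. These values share libraries and are given as a description without a test.

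**Figure D4:**
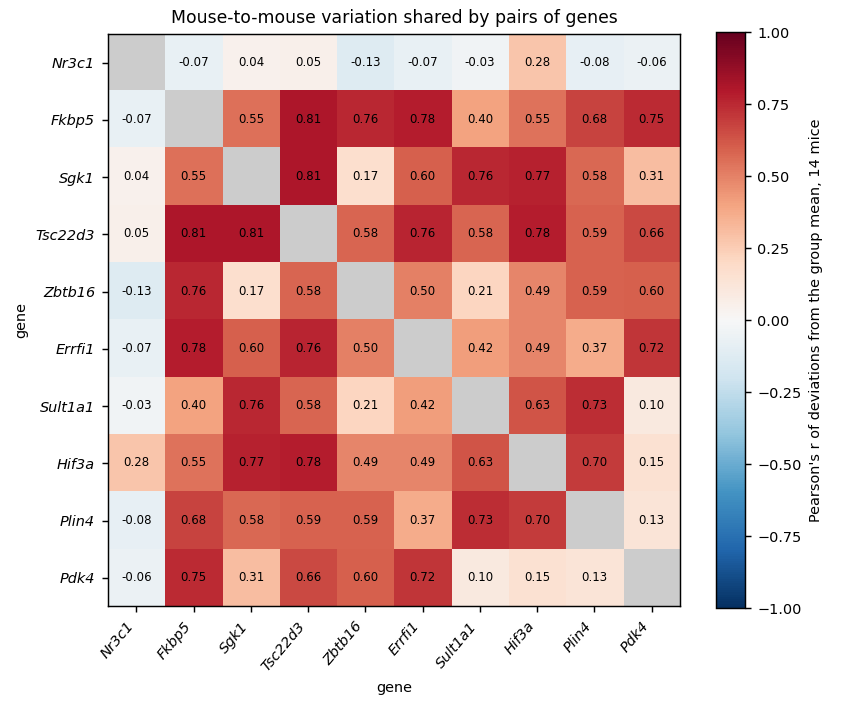
Pearson's r between genes of the deviations of log2 CPM from the group mean over 14 mice (without the third young AL mouse), from -1 (blue) to 1 (red), with the value in each cell. All cells between target genes are above 0, from 0.10 to 0.81, and the row of Nr3c1 is close to 0 except for 0.28 with Hif3a.

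The mean over the 9 targets of log2 CPM minus each gene's overall mean was used to describe single mice. It was -0.11, -0.34, -0.35 and -0.07 in the young AL mice and 0.07, 0.36 and 0.16 in the young EOD mice. It was 0.24, 0.00, 0.47 and 0.33 in the old AL mice and -0.42, -0.69, -0.12 and 0.46 in the old EOD mice. The old EOD group thus held the 2 lowest mice of the series and the second highest. The fourth old EOD mouse, the third old AL mouse and the second young EOD mouse were above their group mean for 9 of 9 targets, and the first old EOD mouse was above it for 0 of 9. In the fourth old EOD mouse the summed clock genes were the highest of the series (1132 CPM). They were nearly as high (1122 CPM) in the second old EOD mouse, which had the lowest 9-target mean. Within its group, the fourth mouse had the highest endothelial markers (196 CPM) and astrocyte markers (4844 CPM). It had the lowest choroid plexus markers (654 CPM) and microglia markers (359 CPM) of the group. Its total count was 10380724, and its blood and immediate-early genes lay within the range of its group. The part of any of these in its target levels was not tested.

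The gene whose deviations were most like those of the 9-target mean, among 14114 genes searched over 14 mice, was Ak3, which encodes a mitochondrial adenylate kinase (Pearson's r = 0.98, Spearman's rho = 0.94). The r was 0.98 with all 15 mice and 0.95 over the 13 mice without the fourth old EOD mouse. Over all genes searched, the 95th percentile of r in the 14 mice was 0.48. Ak3 had 120, 112, 113 and 116 CPM in the young AL mice and 115, 129 and 118 CPM in the young EOD mice. It had 128, 125, 139 and 136 CPM in the old AL mice and 114, 107, 128 and 151 CPM in the old EOD mice. The likeness is of deviations from group means. Between groups, Ak3 had smaller log2 fold changes for EOD against AL, at 0.065 ± 0.095 (SE) in young and -0.078 ± 0.087 in old mice. The target medians there were 0.41 and -0.235. For old against young mice Ak3 had 0.19 ± 0.087 in AL and 0.05 ± 0.095 in EOD mice, beside target medians of 0.29 and -0.18. Scrg1 (0.89), Rin2 (0.89), Sdc4 (0.86), Micu2 (0.86), Cpm (0.86), Dsg2 (0.84) and Carhsp1 (0.83) followed. Sdc4, a cell surface proteoglycan, had the interaction with the smallest unadjusted p among these 8 genes, at -0.55 ± 0.14 (SE) and FDR = 0.9998.

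The genes most like Fkbp5 alone were Gpt2 (0.92), Rhpn2 (0.89), Mdm2 (0.88), Adipor2 (0.88), Msl3 (0.87), Pcf11 (0.87), Wipf2 (0.87) and Mxd4 (0.86), by Pearson's r over the same 14 mice, where the 95th percentile was 0.54. Gpt2 encodes the mitochondrial alanine aminotransferase. Its r with Fkbp5 was 0.80 without the fourth old EOD mouse and 0.56 when the third young AL mouse was included, so that the likeness rested in part on which mice were used. The lists of genes most like Fkbp5 and most like the 9-target mean had no gene in common.

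The other genes of the pathway were taken from lists written with earlier results of these data known, and are described by counts and medians beside those of all genes. Of 25 other glucocorticoid-induced genes, all tested, 0 passed in either diet comparison. In old mice, 8 of the 25 had an unadjusted edgeR p under 0.05 with a lower level in EOD mice and 0 with a higher level, against 1.61% and 0.971% of all genes, and the median log2 fold change was -0.21 against 0.00. The 8 were Mt1, Mt2, Cdkn1a, Arrdc2, Mertk, Lcn2, Angptl4 and Ucp2, named after their values were seen. Mt2, a metallothionein that binds zinc and copper, had the smallest p of the list, at -0.83 ± 0.19 (SE) and FDR = 0.9887. In young mice the median was 0.13, with Ddit4 (0.49 ± 0.18) and Glul (0.13 ± 0.059) above 0 at an unadjusted p under 0.05 and 0 genes below, against 1.83% and 2.31% of all genes. Without the third young AL mouse that median was 0.07. In the interaction, 7 of the 25 had a value below 0 at that p, against 1.23% of all genes, and 0 above, with a median of -0.32 against 0.01, and Angptl4 had the smallest p (-1.62 ± 0.49, FDR = 0.9998). With age in AL mice, Lcn2, a secreted lipocalin of reactive astrocytes, was the gene that rose (4.53 ± 0.87, FDR = 0.009286).

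Of 20 genes of the fasting and fatty acid response, 19 were tested and 0 passed in any comparison. Their median log2 fold change for EOD against AL was 0.04 in young and -0.07 in old mice, close to that of all genes. Txnip, an inhibitor of glucose uptake and of thioredoxin, had the smallest p of all genes tested for the diet in young mice, at 0.64 ± 0.12 (SE) and FDR = 0.5014. Its interaction was -0.71 ± 0.17 (FDR = 0.9998), of the same sign as that of the 9 targets.

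Genes that handle the hormone were measured beside the receptor. Of 6, 4 were tested and 0 passed. H6pd, which supplies the cofactor with which 11-beta-hydroxysteroid dehydrogenase regenerates corticosterone, had a log2 fold change of 0.62 ± 0.19 (SE, FDR = 0.9957) for EOD against AL in young mice and an interaction of -0.80 ± 0.26. Nr3c2, the mineralocorticoid receptor gene, had 0.28 ± 0.12 in young mice. All 8 receptor chaperones and all 8 coregulators were tested, 0 passed in any comparison, and their medians in the diet comparisons lay between -0.00 and 0.05. All 6 listed genes of the hypothalamus-pituitary-adrenal axis, for neuropeptides (Crh, Avp, Pomc), receptors (Crhr1, Crhr2) and a binding protein (Crhbp), were tested and 0 passed. Pomc had -3.08 ± 0.92 for EOD against AL in old mice (FDR = 0.9999), beside the pituitary markers at 1020 CPM in the fourth old AL mouse.

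Relatives and partners of these genes were compared in the same way. Of 18 paralogs, 13 were tested, and their median log2 fold changes lay between -0.03 and 0.02 in every comparison. Plin3, a perilipin expressed in many tissues, passed with age averaged over diets (0.415 ± 0.119 SE, FDR = 0.0985) but not without the third young AL mouse, and Pdk1, Pdk2, Pdk3, Hif1a and Epas1 passed in none. Of 10 partners, Ndrg1, a substrate of the Sgk1 kinase, rose with age in AL mice (0.56 ± 0.073, FDR = 0.0001293). In EOD mice its age difference was 0.32 ± 0.079 (FDR = 0.1692).

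Because whole brain was used, a lower level can stand for fewer cells of a type or for less RNA per cell, and these cannot be told apart. The 5 astrocyte markers, the 6 oligodendrocyte markers and the 5 endothelial markers had medians of 0.06, 0.12 and -0.13 for EOD against AL in young mice, and -0.06, -0.08 and -0.18 in old mice, and 0 of them passed. Their summed levels overlapped between AL and EOD mice at each age. The endothelial markers summed to 173 to 220 CPM in young AL and 174 to 180 in young EOD mice. In old mice they summed to 183 to 208 CPM (AL) and 179 to 196 (EOD). The mean log2 CPM of the endothelial markers, centred as for the targets, did not overlap in young mice, at -0.098 to 0.201 (AL) and -0.145 to -0.124 (EOD). That of the 5 neuron markers did not overlap in young mice either, at 0.024 to 0.191 (AL) and -0.022 to 0.01 (EOD). That of the 5 microglia markers overlapped, at -0.173 to -0.064 (AL) and -0.188 to -0.084 (EOD). In old mice the means of these endothelial, neuron and microglia markers overlapped. Clock genes respond to the hour of collection and to feeding. In young mice, 3 of 11 had an unadjusted p under 0.05 with a higher level in EOD mice, among them Cry1 (0.49 ± 0.14), and 1, Arntl (-0.41 ± 0.12), with a lower level, against 1.83% and 2.31% of all genes. In old mice, 2 of 11 had such a p with a higher level and 0 with a lower level, against 0.971% and 1.61% of all genes, and 0 passed at either age. The part of clock time, cell composition and feeding state in the diet values of the 9 targets was not tested.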

How the data were processed

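Whole-brain RNA of 15 mice had been sequenced as 50 bp single reads, 1 library per mouse. Alignment to GRCm38 was done by the authors with STAR, whose version is not given in the sources used here. featureCounts 1.5.0-p1 then assigned primary alignments with a mapping quality of at least 5, by strand, to the genes of Ensembl release 79. The values as deposited are raw counts of reads for each gene. Library totals ranged from 5198748 to 13610729, so genes with few counts, such as Hif3a, are measured with little precision. Groups and mouse numbers came from the labels.

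All further values were computed from these counts. Tests used edgeR 4.0.16 under R 4.3.3 (filterByExpr, TMM, quasi-likelihood test on 1 fit of the 4 group means, Benjamini-Hochberg FDR under 0.1 over all 15864 genes tested), and were also fitted on 14 mice (15687 genes). Standard errors were derived from the log2 fold change and the root of its F statistic. CPM and RPKM are scaled by TMM, and log2 CPM used a prior count of 2. The steps were tested on simulated counts. Pairs of mice within groups differed by more than sampling noise (chi-square per degree of freedom 3.01 to 16.6 over 21 pairs).

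The members and lists were chosen with earlier results of these data known. All 10 members are named in every comparison, of other lists the genes past FDR 0.1 or, where none passed, the gene with the smallest p, and the 8 genes most like Fkbp5 and most like the 9-target mean, with other names marked as chosen after their values were seen. Txnip, H6pd, Nr3c2, Pomc, Cry1, Arntl, Glul and Sdc4 were partly chosen in that way, and so was the 13-mouse correlation. The alternatives were total counts or RLE size factors in place of TMM, looser and stricter filters, DESeq2 1.42.0, an FDR of 0.05, a replicate block, lane as a covariate, a fit restricted to the groups in question, and omission of single mice. Leaving out the third young AL and the fourth old EOD mouse together, and the differences within lanes, were added after seeing the data. No column of other samples was present.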

Additional observations from a re-analysis of the deposited data

How the results depend on the processing

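Of the 50 fold changes of the 10 genes in 5 comparisons, 38 kept their sign under all alternatives tried. Counts of called members were 0 throughout except as follows. With every gene of at least 1 count, each of the 3 age comparisons called 2, the diet comparison called 3 in young mice, 1 in old mice and 2 when averaged, and the interaction called 5. That fit, of 26269 genes, had 2165.9 prior degrees of freedom against 9.8 in the fit reported, beside 11 residual degrees of freedom in both, so its p-values hardly used a gene's own spread between mice. With 2 groups only, the age difference in AL mice called 1 (Sgk1), and with lane as a covariate the age difference in EOD mice called 1 (Hif3a). Leaving out single mice gave 0 to 2 in AL and 0 to 1 in EOD mice. Leaving out the third young AL and the fourth old EOD mouse together gave 2 in AL mice (Sgk1, Plin4), 2 in EOD mice (Hif3a, Tsc22d3) and 1 for diet in old mice (Plin4). Apart from the looser filter and the left-out mice, whose construction changes the genes or samples fitted, the cause was not tested.

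Replicate numbers did not pair the mice (mean r of same-numbered deviations -0.0266 over 21 pairs, from -0.113 to 0.113). With the replicate block the age difference in AL mice called 2 of the 10 genes (Sgk1 and Plin4), and 0 in the other comparisons.

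Values near 0 turned sign. For age in AL mice, Nr3c1 was 0.008 with total counts, 0.002 with the looser filter, 0.012 with lane and 0.047 without the 2 mice, and Sult1a1 was 0.013, 0.005, 0.001 with at least 10 counts, 0.002 with DESeq2, 0.016 with the block and 0.223 without the 2 mice. For age in EOD mice, Pdk4 was -0.019 with the block, -0.045 with lane and -0.087 without the 2 mice, where Errfi1 was -0.077. Without those mice Plin4 was -0.010 for diet in young and Errfi1 -0.045 for diet in old mice, and the interaction of Nr3c1 was -0.011, and -0.005 with lane. Over single left-out mice, Nr3c1 ran from -0.052 to 0.073 (age, AL), -0.023 to 0.068 (diet, young), -0.002 to 0.130 (diet, old) and -0.024 to 0.106 (interaction). Sult1a1 ran from -0.122 to 0.223 (age, AL), and Plin4 from -0.012 to 0.573 (diet, young) and -0.901 to 0.099 (age, EOD). Pdk4 ran from -0.083 to 0.101 (age, EOD), Sgk1 from -0.463 to 0.119 (age, EOD) and -0.558 to 0.024 (diet, old), and Errfi1 from -0.075 to 0.140 (age, EOD) and -0.040 to 0.170 (diet, old). Over all genes, the looser filter called 444 with age in AL mice in place of 173, 100 in EOD mice in place of 46, and 26, 27 and 26 for diet in young mice, diet in old mice and the interaction. DESeq2 called 244, 72, 1, 0 and 0. Depth limits Hif3a most, with 13 to 101 counts a mouse.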
